A study of Arabidopsis thaliana with 28 samples.

Results

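The comparison described here is the step between 2 labelled times in shoots of Arabidopsis thaliana after UV-B exposure, 1 h against 0.5 h. It rests on the 2 shoot arrays labelled 1 h and the 2 shoot arrays labelled 0.5 h, 4 of the 28 arrays of the study, chosen by their tissue and time labels alone. All plants were of the accession Col-0 and grew on Murashige and Skoog medium at 24 °C in 16 h days. Plants of both groups carried the same treatment: on day 16, 3 h into the light period, a UV-B lamp delivered 1.18 W/m2 for 15 min. The remaining arrays hold shoots at 5 further times and roots at all 7 times, 2 arrays each. No unexposed plants were analysed here, so each value below is a step between 2 treated times and not a difference from an untreated state. Time after exposure and time of day advance together between the groups and cannot be told apart. Separate cultures are not stated for the 2 arrays of a group, and the p-values below therefore reflect array-to-array spread that could be technical.

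UV-B is the short-wave ultraviolet part of sunlight that reaches plants. Its photoreceptor, UVR8, separates into monomers on absorbing UV-B and acts with the ubiquitin ligase COP1 to raise the bZIP factors HY5 and HYH, which switch on genes of ultraviolet-absorbing flavonoids and hydroxycinnamate esters. Stronger UV-B also sets off stress responses shared with wounding and pathogen attack, which use calcium sensors, zinc finger and WRKY transcription factors, and the hormones jasmonate and salicylate.

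Each array gives a MAS5 signal, the brightness summary that Affymetrix software computes for a probe set, the group of probes that detects a transcript. Median signals were 37.3 and 38.1 on the 1 h arrays and 36.7 and 37.7 on the 0.5 h arrays. Over probe sets, log2 signals correlated at Pearson's r = 0.986 between the 1 h arrays and 0.985 between the 0.5 h arrays, against 0.966 to 0.979 between the times. The shoot label was borne out by RCA (AT2G39730), the Rubisco activase, with 4714 and 6797 at 1 h and 4494 and 5199 at 0.5 h in shoots, against 102 to 155 in the root arrays of the same times.

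One array stood apart in transcripts typical of roots. For 197 probe sets that were abundant in roots and low in the shoot arrays of the other times, a set drawn up after the data had been seen, the summed signal was 2139.7 and 2509.5 on the 1 h arrays, against 5269 on the first and 2637 on the second 0.5 h array. The other 10 shoot arrays lay between 1642 and 2605, but low signals on them were a condition for choosing the set. Among the 4 arrays compared, which did not enter that condition, the first 0.5 h array had the highest sum. In the comparison of the 2 times, 4 of these 197 probe sets were higher and 36 lower, beside 10.1% and 11.5% of all probe sets tested. Their median log2 change was -0.21 with all arrays, 0.02 without the first 0.5 h array and -0.44 without the second. It was -0.14 without the first 1 h array and -0.27 without the second. The genes named in this paragraph were chosen after their values were seen. PYK10 (AT3G09260), the β-glucosidase of endoplasmic reticulum bodies and a marker of roots, had signals of 422 and 360.3 at 1 h against 1459.9 and 567 at 0.5 h. At 0.25 h its shoot signals were 593 and 928. It was 2.30-fold lower at 1 h than at 0.5 h (SE 0.29 on the log2 scale, n = 2 against 2, limma adjusted p = 0.00702). Its log2 change was -0.53 without the first 0.5 h array (limma adjusted p = 0.0922) and -1.09 without the second 1 h array (adjusted p = 0.0645), both without a call, and -1.88 without the second 0.5 h array. PYK10 was also not called in the fit to the 4 arrays (0.320), with shoots fitted alone (0.0775) or after quantile normalization of the shoot arrays (0.0697). The root-hair expansins EXPA7 (AT1G12560) and EXPA18 (AT1G62980), the other measured members of 3 root markers, had signals of 12.5 to 25.9 at 1 h and 1.97 to 16.4 at 0.5 h and were not called. Without the first 0.5 h array EXPA7 was called higher, by 1.04 (limma adjusted p = 0.0185). In whole shoots, fewer cells of a type and less RNA per cell cannot be told apart. The part of root transcripts in the falls below was not tested.

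**Figure D1:**
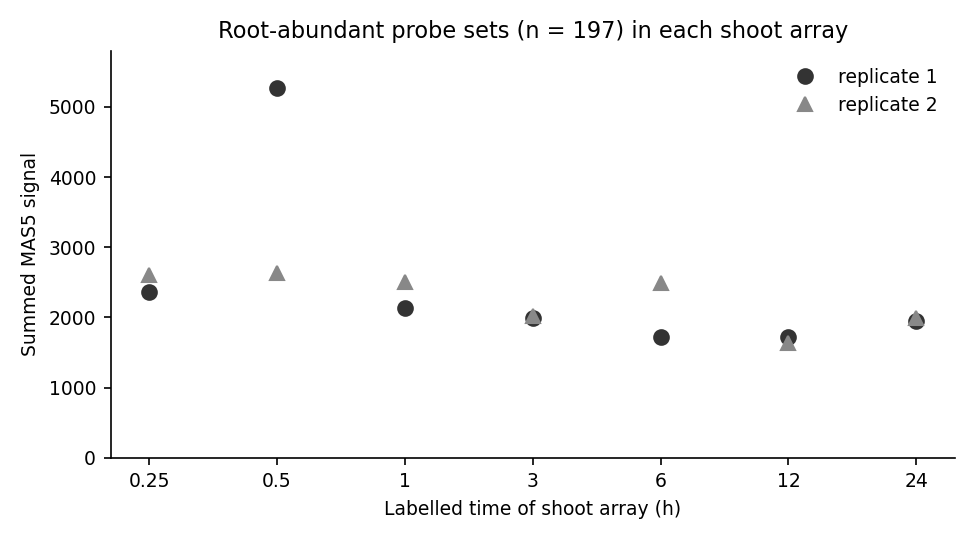
Summed MAS5 signal of the 197 root-abundant probe sets (vertical axis) in each of the 14 shoot arrays, by labelled time in hours (horizontal axis, evenly spaced), with circles for the first and triangles for the second replicate. The first 0.5 h array is at 5269 and every other array at or below 2637. Low signals at the times other than 0.5 h and 1 h were a condition for choosing the set.

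Of 14806 probe sets tested, 1502 were higher and 1701 lower at 1 h than at 0.5 h, or 10.1% and 11.5%, which makes 3203 or 21.6% in all (limma, Benjamini-Hochberg adjusted p under 0.05). Most of these changes were small, with a median size of 0.55 on the log2 scale, and 174 (1.18%) were higher and 278 (1.88%) lower by at least 2-fold. Over all probe sets tested the median log2 change was 0.01. Without the first 0.5 h array 1905 were called, 883 higher and 1022 lower, and 1714 of them were called in the same direction with all arrays. Without the second 1 h array 1971 were called, of which 1799 were shared in this way. Of the 174 and 278 probe sets that changed by 2-fold or more, 160 and 249 were still called without the first 0.5 h array. A fit to the 4 arrays alone called 1473. Changes are given on the scale log2(signal + 9.58), which understates those of weak signals.

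Among genes named by rule, the largest rise was that of AT3G48640, with signals of 566 and 539 at 1 h against 48.4 and 59.3 at 0.5 h. AT2G20142 had 329 and 370.2 at 1 h against 35.3 and 33.8 at 0.5 h, and AT2G32140 averaged 215 ± 18.5 at 1 h and 18.3 ± 2.42 at 0.5 h (SD, n = 2 each). These 3 genes, for which no function is annotated in the tables used here, rose by 3.15 ± 0.40, 3.02 ± 0.19 and 3.01 ± 0.18 (log2 ± SE; limma adjusted p = 2.19e-05, 5.67e-10 and 4.49e-10). Signals did not overlap between the times in any of them, which the rule for naming the largest rises required. Further rises among the 12 largest, also of genes without annotation, were those of AT3G60420 (2.53), AT5G22530 (2.36), AT1G24140 (2.22), AT4G37290 (2.07) and AT4G32800 (1.91), each on the log2 scale. AT2G41730 rose 4.58-fold, with 215 and 306 at 1 h against 53.3 and 44.0 at 0.5 h. AT4G32800 had signals of 44.5 and 54.5 at 1 h against 6.33 and 5.93 at 0.5 h, and its change was 3.01 with no pseudocount and 0.93 with one at the median signal. AT1G69840, a more abundant transcript named here after its values were seen, had 2089 and 2167 at 1 h against 660.1 and 714 at 0.5 h.

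The largest rise of an annotated gene named by rule was in the synthesis of ultraviolet-absorbing compounds. UGT84A1 (AT4G15480), which attaches glucose to hydroxycinnamic acids on the route to sinapate esters, had signals of 208 and 149.9 at 1 h against 3.87 and 33.3 at 0.5 h. It rose by 2.96 ± 0.35 (limma adjusted p = 6.13e-06), although the 0.5 h arrays differed from each other several-fold, and the change was 1.91 with a pseudocount at the median and lost its call in a fit to the 4 arrays alone (adjusted p = 0.111). Its relative UGT84A3 (AT4G15490) had 104 and 111 at 1 h against 66.9 and 74.4 at 0.5 h, a rise of 0.54 ± 0.14 (adjusted p = 0.00694). ALDH2C4 (AT3G24503), the dehydrogenase that makes ferulic and sinapic acid from their aldehydes, had 583 and 528 at 1 h against 421 and 422 at 0.5 h, a rise of 0.39 ± 0.10 (adjusted p = 0.0103). HCT (AT5G48930), an acyltransferase earlier in the pathway, was at 609 and 594 at 1 h against 683 and 662 at 0.5 h and was not called. Of the 18 genes of the phenylpropanoid and sinapate list, 4 were measured, of which 3 were higher and none lower. Over all probe sets tested, 10.1% were higher and 11.5% lower. UGT84A3 lost its call without the first 0.5 h array (adjusted p = 0.0742), without the second 1 h array (0.0580) and without a pseudocount (0.0967), and ALDH2C4 without the first 0.5 h array (0.0557), without the first 1 h array (0.0844) and in the fit to 4 arrays (0.0583).

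In flavonoid synthesis, 2 of 5 measured genes were higher and none lower, beside 10.1% and 11.5% of all probe sets tested. UGT78D2 (AT5G17050), the flavonoid 3-O-glucosyltransferase, had signals of 1317 and 1541 at 1 h against 580.0 and 701 at 0.5 h and rose by 1.15 ± 0.12 (limma adjusted p = 5.95e-07). AT1G06000, also on the list, had 316 and 279 at 1 h against 79.9 and 195 at 0.5 h and rose by 1.18 ± 0.21 (adjusted p = 4.88e-04). The size of that rise depended on the 0.5 h arrays: it was 0.59 without the first and 1.78 without the second, and in the fit to 4 arrays it was not called (adjusted p = 0.212). CHIL (AT5G05270), a chalcone isomerase-like protein that promotes flavonoid synthesis, had 136 and 150.4 at 1 h against 69.7 and 142 at 0.5 h, so that the groups overlapped, with no call (adjusted p = 0.0988). It was called at 0.95 without the second 0.5 h array (adjusted p = 3.05e-04). The anthocyanin enzyme DFR (AT5G42800), named after its values were seen, with 53.6 and 64.0 at 1 h against 30.1 and 105 at 0.5 h, and the flavonol rhamnosyltransferase UGT78D1 (AT1G30530), with 175 and 146 at 1 h against 142 and 194 at 0.5 h, overlapped between the times and were not called. A cinnamoyl-CoA reductase, CCR2 (AT1G80820), which is outside these lists and was named after its values were seen, had 43.9 and 48.0 at 1 h against 18.8 and 13.7 at 0.5 h.

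Among genes listed for UVR8 signalling, 2 of the 3 measured genes were higher and none lower, beside 10.1% and 11.5% of all probe sets tested. AT3G17800, a gene of that list without annotation in the tables used here, had signals of 2695 and 2996 at 1 h against 1445 and 1466 at 0.5 h and rose by 0.96 ± 0.10 (limma adjusted p = 2.56e-07). AT1G16260 had 230.0 and 259 at 1 h against 181 and 159 at 0.5 h and rose by 0.50 ± 0.12 (adjusted p = 0.00557), a call that was lost without the second 0.5 h array (adjusted p = 0.0576) or the second 1 h array (0.0735). The transcription factor HYH (AT3G17609), the close relative of HY5, had 543 and 512 at 1 h against 461 and 466 at 0.5 h. Its change of 0.18 ± 0.13 was not called (limma adjusted p = 0.351). At 0.25 h the shoot signals of HYH were 221 and 231, below those at both compared times.

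Cold-regulated genes were also among the 12 largest rises. COR15A (AT2G42540), which encodes a chloroplast protein that stabilizes membranes during freezing, had signals of 373 and 256 at 1 h against 42.4 and 49.3 at 0.5 h and rose by 2.53 ± 0.28 (limma adjusted p = 1.57e-06). Its neighbour and relative COR15B (AT2G42530) had 219 and 157 at 1 h against 43.1 and 44.7 at 0.5 h and rose by 1.87 ± 0.25 (adjusted p = 1.11e-05). The dehydrin COR47 (AT1G20440) rose by 0.47 ± 0.14, with 424 and 343 at 1 h against 298 and 249 at 0.5 h. A further dehydrin, LTI30 (AT3G50970), had 26.7 and 17.0 at 1 h against 30.0 and 12.1 at 0.5 h and was not called (adjusted p = 0.784). Of 31 genes on the abscisic acid, cold and dehydration list 4 were measured, with 3 higher and none lower. The shares over all probe sets tested were 10.1% and 11.5%. The COR47 call (adjusted p = 0.0164) was lost without the second 0.5 h array (0.142), without the first 1 h array (0.169) and when shoots were fitted alone (0.0706). MYBC1 (AT2G40970), a repressor of freezing tolerance named after its values were seen, had 27.3 and 23.9 at 1 h against 69.2 and 58.0 at 0.5 h. MYBC1 averaged 214 over the root arrays and changed by -0.94 without the first 0.5 h array (limma adjusted p = 4.60e-06).

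The clock gene GI (AT1G22770), GIGANTEA, whose protein peaks late in the day and links the clock to flowering, rose with little scatter. Its signals were 214 and 236 at 1 h against 72.2 and 71.8 at 0.5 h, a rise of 1.52 ± 0.09 (limma adjusted p = 2.14e-10). The other measured clock genes, AT4G33980 and COR27 (AT5G42900), were near the bottom of the signal range, with 3.84 and 7.31 at 1 h against 0.343 and 2.19 at 0.5 h for AT4G33980 and 0.455 and 0.825 at 1 h against 1.24 and 4.51 at 0.5 h for COR27. Neither was called (adjusted p = 0.0567 and 0.304). AT4G33980 was called without a pseudocount (adjusted p = 0.0137), without the trend and robust options (0.0294), without the second 0.5 h array (0.0487) and without the first 1 h array (0.0343).

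Genes of rapid stress responses split. Of 8 measured members of that list, 4 were higher and 2, the transcription factors WRKY6 and WRKY53, were lower. Over all probe sets tested, 10.1% were higher and 11.5% lower. CML37 (AT5G42380), a calmodulin-like calcium sensor, had signals of 112 and 87.9 at 1 h against 27.2 and 22.7 at 0.5 h and rose by 1.66 ± 0.19 (limma adjusted p = 1.76e-06). AT4G27280, one of the strongest signals of the list, had 3438 and 4983 at 1 h against 1505 and 1911 at 0.5 h and rose by 1.28 ± 0.17 (adjusted p = 1.43e-05). The zinc finger repressor STZ (AT1G27730), known in salt tolerance, had 1651 and 1794 at 1 h against 1024 and 939 at 0.5 h and rose by 0.81 ± 0.14. The calmodulin-like CML38 (AT1G76650), with 398 and 395 at 1 h against 282 and 210.0 at 0.5 h, rose by 0.68 ± 0.15. AT4G29780, at 172 and 224 at 1 h against 245 and 178 at 0.5 h, and AT2G28200, at 76.7 and 85.0 at 1 h against 88.5 and 85.6 at 0.5 h, were not called and were named after their values were seen. A further calmodulin-like gene, CML41 (AT3G50770), moved the other way, with 12.9 and 15.0 at 1 h against 32.7 and 51.4 at 0.5 h and a change of -1.11 ± 0.18 (adjusted p = 9.48e-05). Among 7 measured calmodulin-like genes 2 were higher and 1 lower, with the shares over all probe sets as given above.

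WRKY transcription factors, which bind W-box promoter elements of defence and senescence genes, had 4 of 5 measured members lower and none higher, where 11.5% of all probe sets tested were lower. The count of 4 became 2 on omission of the first 0.5 h array and 3 on omission of the second 1 h array. WRKY6 (AT1G62300), known in senescence and phosphate signalling, had signals of 11.3 and 6.01 at 1 h against 70.4 and 54.2 at 0.5 h and fell by 1.99 ± 0.14 (limma adjusted p = 4.08e-09). WRKY47 (AT4G01720) had 29.3 and 26.7 at 1 h against 124 and 74.1 at 0.5 h and fell by 1.49 ± 0.17 (adjusted p = 1.76e-06). The senescence regulator WRKY53 (AT4G23810) had 145 and 139 at 1 h against 322 and 230.0 at 0.5 h and fell by 0.90 ± 0.20, and WRKY22 (AT4G01250), a factor downstream of immune kinases, averaged 31.6 ± 0.509 at 1 h and 50.1 ± 9.81 at 0.5 h (SD, n = 2 each) and fell by 0.53 ± 0.14. WRKY22 and WRKY20 were named after their values were seen. Without the first 0.5 h array WRKY53 (adjusted p = 0.0664) and WRKY22 (0.187) lost their calls, and WRKY22 also did so without the second 1 h array (0.0640), in the fit to 4 arrays (0.104) and in the fit to shoots alone (0.0506). WRKY20 (AT4G26640) had 94.9 and 103 at 1 h against 108 and 108 at 0.5 h and was not called. The jasmonate-responsive factor MYC4 (AT4G17880) had 55.6 and 48.7 at 1 h against 97.1 and 105 at 0.5 h and fell by 0.84 ± 0.15 (adjusted p = 2.82e-04).

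**Figure D2:**
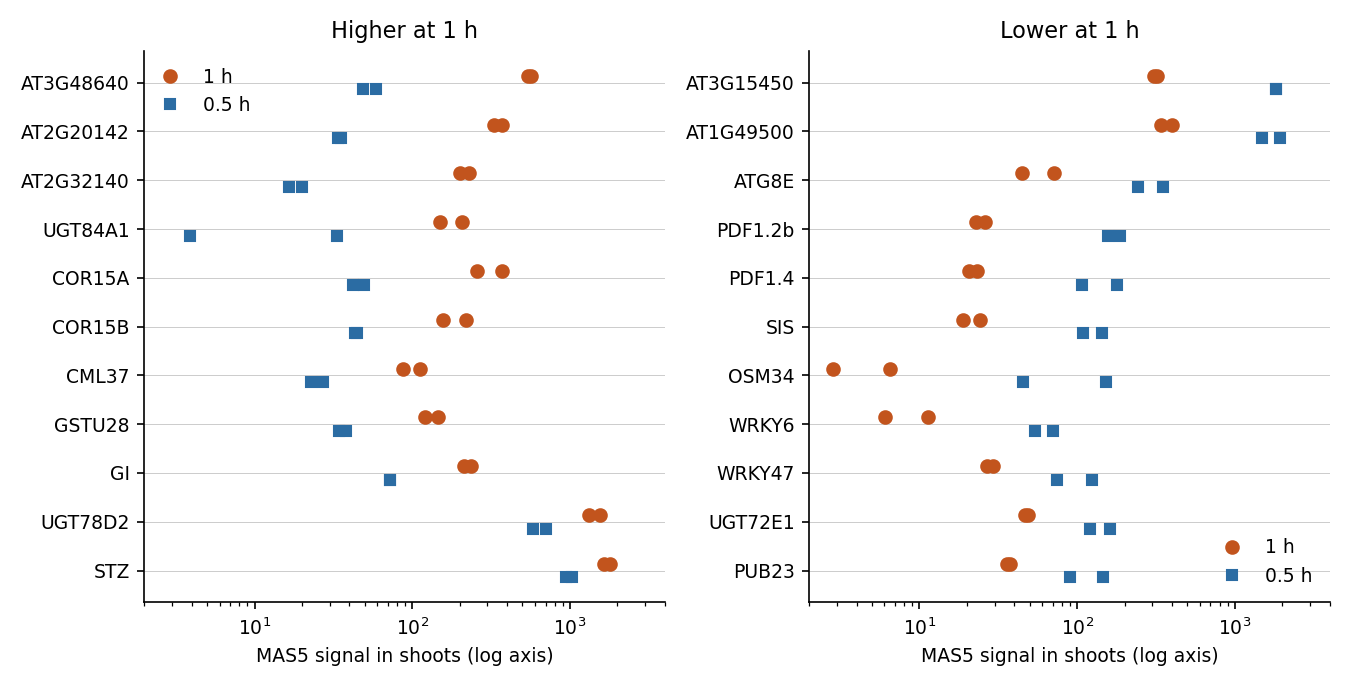
MAS5 signals in shoots (horizontal log axis) of 11 genes that were higher at 1 h (left panel) and 11 that were lower (right panel), with circles for the 2 arrays at 1 h and squares for the 2 arrays at 0.5 h. In each gene shown the 1 h signals lie beyond both 0.5 h signals, a condition for being named among the largest rises and falls. Replicate scatter is widest for UGT84A1 at 0.5 h (3.87 and 33.3) and OSM34 at 0.5 h (153 and 45.6).

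Defensins, small antifungal proteins, gave some of the largest falls. PDF1.2b (AT2G26020), a jasmonate-responsive defensin, had signals of 25.9 and 23.0 at 1 h against 186 and 157 at 0.5 h and fell by 2.41 ± 0.33 (limma adjusted p = 3.36e-05). PDF1.4 (AT1G19610) had 20.5 and 23.1 at 1 h against 179 and 108 at 0.5 h and fell by 2.25 ± 0.25 (adjusted p = 1.76e-06). PDF1.2 (AT5G44420), so close to PDF1.2b in sequence that a probe set may detect either, had 28.8 and 13.3 at 1 h against 74.5 and 74.0 at 0.5 h. Its change of -1.50 ± 0.53 missed the threshold (limma adjusted p = 0.0528). It passed without a pseudocount (0.0317), in the fit to 4 arrays (0.00689), with a filter at the 75th percentile (0.0391) and after quantile normalization of all arrays (0.0305). The same held without the trend and robust options (0.0308) and with replicate number as a block (0.0282). No call was made under the other settings, among them the fit to shoots alone. The change was -1.50 without the first 0.5 h array. Of 9 measured genes on the defensin and thionin list, 2 were lower and none higher, beside 11.5% and 10.1% of all probe sets tested. The thionin THI2.2 (AT5G36910) was at 404 and 432 at 1 h against 414 and 292 at 0.5 h, and THI2.1 (AT1G72260), named after its values were seen, at 54.3 and 53.9 at 1 h against 12.3 and 77.6 at 0.5 h, both without a call. The sign and the call of THI2.1 turned on the 0.5 h arrays, with a log2 change of -0.45 without the first (limma adjusted p = 0.521) and 1.54 without the second (0.00854).

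The largest fall among genes named by rule was that of OSM34 (AT4G11650), an osmotin-like protein of the pathogenesis-related family. It had signals of 6.54 and 2.83 at 1 h against 153 and 45.6 at 0.5 h and changed by -2.74 ± 0.39 (limma adjusted p = 8.68e-05; -4.28 with no pseudocount and -1.49 with one at the median). OSM34 averaged 1897 over the root arrays, and its change was -1.96 without the first 0.5 h array (limma adjusted p = 7.00e-04). Other falls of genes abundant in roots, chosen after their values were seen, were those of AT5G26280, with 6.90 and 8.75 at 1 h against 68.9 and 30.4 at 0.5 h and a root mean of 903, and AT4G16260, with means of 2.01 ± 1.13 at 1 h and 33.2 ± 4.74 at 0.5 h (SD, n = 2 each) and a root mean of 1100.1. JAL34, NAI2 and MT1C were chosen in the same way. JAL34 (AT3G16460), a jacalin-related lectin, had 136 and 110.4 at 1 h against 412 and 223 at 0.5 h. Its fall of 1.24 ± 0.20 was 0.81 in size without the first 0.5 h array and still called (a change of -0.81, adjusted p = 0.00195). NAI2 (AT3G15950), which is needed to form endoplasmic reticulum bodies, had 60.1 and 67.6 at 1 h against 179 and 87.7 at 0.5 h, and its change of -0.88 was -0.41 and not called without that array (adjusted p = 0.0801). MT1C (AT1G07610), a metallothionein with a root mean of 4044, had 784 and 932 at 1 h against 2128 and 1744 at 0.5 h, so both 0.5 h arrays were high. At 0.25 h the shoot signals were 282 and 351 for JAL34, 122 and 130.3 for NAI2 and 1217 and 1482 for MT1C. For OSM34 they were 14.3 and 19.3.

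Several of the 12 largest falls were of transcripts with a high level at 0.5 h in both arrays. AT3G15450 had signals of 319 and 308 at 1 h against 1835 and 1831 at 0.5 h and fell by 2.51 ± 0.19 (limma adjusted p = 1.45e-08). AT1G49500 had 400.1 and 339.5 at 1 h against 1932 and 1483 at 0.5 h, and AT5G19120 had 156 and 156 at 1 h against 807 and 653 at 0.5 h. These 3 genes are without annotation in the tables used here and fell by 2.15 or more. ATG8E (AT2G45170), a ubiquitin-like protein that is attached to autophagosome membranes, had 70.9 and 45.0 at 1 h against 348 and 243 at 0.5 h and fell by 2.18 ± 0.19 (adjusted p = 6.82e-08). SIS (AT5G02020), a serine-rich protein induced by salt, had 18.8 and 24.1 at 1 h against 144 and 109 at 0.5 h and fell by 2.13 ± 0.18 (adjusted p = 3.75e-08). AT2G17740, with a change of -2.11, and AT4G22470, with -2.05, were weak transcripts with signals of 1.53 to 18.4 at 1 h and 50.7 to 98.1 at 0.5 h. The remaining gene, AT4G12490, had 15.4 and 14.1 at 1 h against 149 and 118 at 0.5 h, and its call (-2.55 ± 0.79, adjusted p = 0.0310) did not hold after omission of any single array of the 4 (0.0720 to 0.147), when shoots were fitted alone (0.176) or after quantile normalization of the shoot arrays (0.140).

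AKINBETA1, PPDK and FDH were named after their values were seen. AKINBETA1 (AT5G21170), a β subunit of the energy-sensing kinase SnRK1, had signals of 98.8 and 84.4 at 1 h against 186 and 166 at 0.5 h and fell by 0.88 ± 0.11 (limma adjusted p = 6.97e-06). PPDK (AT4G15530), pyruvate orthophosphate dikinase, had 289 and 319 at 1 h against 558 and 533 at 0.5 h and fell by 0.83 ± 0.13. FDH (AT5G14780), formate dehydrogenase, had 277 and 270.3 at 1 h against 570.3 and 509.7 at 0.5 h and fell by 0.95 ± 0.19. SWEET11 (AT3G48740), a sucrose exporter that supplies the phloem, fell by 0.67 ± 0.16, with 623 and 809 at 1 h against 1198 and 1077 at 0.5 h (adjusted p = 0.00347, and 0.0657 without the first 1 h array). SWEET1 (AT1G21460), a glucose transporter, had 92.2 and 111 at 1 h against 149 and 172 at 0.5 h and fell by 0.61 ± 0.16 (adjusted p = 0.00815, and 0.0659 and 0.0811 without the second 0.5 h or the first 1 h array). SWEET13 (AT5G50800) was higher, with 71.8 and 101 at 1 h against 59.5 and 59.4 at 0.5 h, at an adjusted p of 0.0492 that passed 0.05 without either 0.5 h array (0.157 and 0.118), without the second 1 h array (0.453) and under 6 other settings (0.0527 to 0.138). These 1 rise and 2 falls, named by the rule for families, were the calls among 7 measured SWEET genes, beside 10.1% higher and 11.5% lower over all probe sets tested, and no fall was called without the first 1 h array.

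Of 34 measured UDP-glycosyltransferases, which attach sugars to metabolites, 6 were higher and 13 lower, with a median log2 change of -0.18, where 10.1% and 11.5% of all probe sets tested were called. Without the second 1 h array 4 were higher and 6 lower, and without the first 7 were higher and 8 lower. UGT72E1 (AT3G50740), which glucosylates aldehydes of the lignin pathway, had signals of 46.4 and 49.0 at 1 h against 162 and 121 at 0.5 h and fell by 1.39 ± 0.13 (limma adjusted p = 1.62e-07). UGT72E1 averaged 372 over the root arrays and changed by -1.19 without the first 0.5 h array (adjusted p = 1.26e-05). UGT76C2 (AT5G05860), a cytokinin N-glucosyltransferase, had 57.8 and 48.0 at 1 h against 131 and 108 at 0.5 h and fell by 1.05 ± 0.16. UGT71C4 (AT1G07250), named like UGT76C2 after its values were seen, had 702 and 817 at 1 h against 455 and 469.7 at 0.5 h and rose by 0.70 ± 0.10 (adjusted p = 2.07e-05). Of 14 measured cytochromes P450, which oxidize metabolites and most of which here belong to the CYP71B group, 8 were lower and none higher, with a median of -0.53, where 11.5% of all probe sets tested were lower. The count of 8 moved with single arrays: it was 3 without the first 0.5 h array, 4 without the second 1 h array, 5 without the first 1 h array and 6 without the second 0.5 h array. CYP71B24 (AT3G26230) had 63.1 and 48.6 at 1 h against 147 and 142 at 0.5 h and fell by 1.25 ± 0.18 (adjusted p = 2.91e-05). CYP71B36 (AT3G26320), with 27.4 and 22.7 at 1 h against 91.3 and 52.1 at 0.5 h, fell by 1.19 ± 0.23, a call lost without a pseudocount (adjusted p = 0.192). CYP71B29 (AT1G13100), with a change of -0.76, lost its call without the first 0.5 h array (0.0800), without the first 1 h array (0.0613) and in the fit to 4 arrays (0.0835).

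Among 12 measured glutathione transferases, which conjugate glutathione to toxic compounds, 2 were higher and 2 lower, beside 10.1% and 11.5% of all probe sets tested, and 1 and 1 without the second 1 h array. GSTU28 (AT1G53680) had signals of 120.2 and 145 at 1 h against 37.9 and 34.2 at 0.5 h and rose by 1.64 ± 0.14 (limma adjusted p = 2.17e-08). GSTU18 (AT1G10360) had 363 and 363 at 1 h against 283 and 272 at 0.5 h and rose by 0.38 ± 0.11 (adjusted p = 0.0133), which was lost without the second 0.5 h array (0.0669), the second 1 h array (0.0637) and in the fit to 4 arrays (0.0592). GSTU27 (AT3G43800) had 103 and 108 at 1 h against 162 and 187 at 0.5 h and fell by 0.67 ± 0.11 (adjusted p = 1.81e-04). In the oxidative stress and detoxification list 1 of 7 measured genes was higher and 1 lower, a share near that over all probe sets. AT2G04070 had 41.7 and 34.0 at 1 h against 13.1 and 6.14 at 0.5 h and rose by 1.32 ± 0.21 (2.07 with no pseudocount and 0.63 with one at the median). UGT73B5 (AT2G15480) had 23.7 and 16.8 at 1 h against 42.7 and 30.4 at 0.5 h and fell by 0.63 ± 0.16 (adjusted p = 0.00772), which was lost without the first 0.5 h array (0.145), without the second 1 h array (0.126), in the fit to shoots alone (0.0564) and in that to 4 arrays (0.116).

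U-box and RING ubiquitin ligases, which mark proteins for breakdown, included 4 lower and 1 higher of 11 measured. Over all probe sets tested, 11.5% were lower and 10.1% higher. PUB22 (AT3G52450) and PUB23 (AT2G35930), related ligases that dampen immune signalling, moved together. PUB22 had signals of 34.1 and 40.5 at 1 h against 101 and 92.0 at 0.5 h and fell by 1.18 ± 0.13 (limma adjusted p = 6.68e-07). PUB23 had 36.1 and 37.3 at 1 h against 145 and 89.9 at 0.5 h and fell by 1.42 ± 0.19 (adjusted p = 1.22e-05). Their relative PUB24 (AT3G11840) had 153 and 142 at 1 h against 116 and 84.8 at 0.5 h and rose by 0.52 ± 0.15 (adjusted p = 0.0163), a call lost without the second 0.5 h array (0.206), without the first 1 h array (0.0821), in the fit to shoots alone (0.0718) and in that to 4 arrays (0.0789). PUB24 and PUB26 were named after their values were seen. The other calls were falls of ATL8 (AT1G76410), by 0.99, and PUB26 (AT1G49780), by 0.65, and PUB26 was not called without the first 0.5 h array (adjusted p = 0.133), the second 1 h array (0.111) or a pseudocount (0.0742).

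In the auxin response list, 2 of 4 measured genes were higher and 1 lower, beside 10.1% and 11.5% of all probe sets tested. IAA29 (AT4G32280), a repressor of auxin signalling, had signals of 27.5 and 34.3 at 1 h against 14.9 and 8.93 at 0.5 h and rose by 0.92 ± 0.16 (limma adjusted p = 2.89e-04; 1.41 with no pseudocount and 0.44 with one at the median). GH3.3 (AT2G23170), which conjugates auxin to amino acids, had 59.7 and 49.2 at 1 h against 10.4 and 29.1 at 0.5 h. It rose 2.30-fold (limma adjusted p = 0.0161). Without the first 0.5 h array its log2 change was 0.72, with no call (0.223), and neither was it called when the first (0.0849) or second (0.0511) 1 h array was omitted or when shoots were fitted alone (0.0835). HAT2 (AT5G47370), a homeodomain factor induced by auxin, averaged 75.8 ± 1.13 at 1 h and 117 ± 2.70 at 0.5 h (SD, n = 2 each) and fell by 0.57 ± 0.12 (adjusted p = 0.00105). WES1 (AT4G27260), a further auxin-conjugating enzyme, had 74.0 and 78.8 at 1 h against 85.4 and 123 at 0.5 h and was not called (adjusted p = 0.0572), but it was without the first 0.5 h array (0.00783) and with a pseudocount at the median (0.0462).

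The unfolded protein and heat shock list had 1 gene higher and 1 lower of 5 measured, beside 10.1% and 11.5% of all probe sets tested. AT5G48570, which encodes the heat-induced co-chaperone FKBP65, had signals of 51.2 and 31.4 at 1 h against 125 and 121 at 0.5 h and fell by 1.41 ± 0.17 (limma adjusted p = 3.30e-06). BZIP28 (AT3G10800), a membrane-bound sensor of the unfolded protein response, had 169 and 182 at 1 h against 141 and 125 at 0.5 h and rose by 0.38 ± 0.09 (adjusted p = 0.00258, and 0.0960 in the fit to 4 arrays). Its partner BZIP60 (AT1G42990) was at 428 and 352 at 1 h against 498 and 412 at 0.5 h and was not called with all arrays (adjusted p = 0.138). It was called lower without the second 0.5 h array (-0.35, limma adjusted p = 0.0374) and without the first 1 h array (-0.36, 0.0358). The lone measured jasmonate gene, OPCL1 (AT1G20510), a ligase of jasmonate synthesis, was higher by 0.34 ± 0.11 (adjusted p = 0.0349), with 240.0 and 233 at 1 h against 181 and 188 at 0.5 h, but was not called after omission of any single array of the 4 (0.0714 to 0.158) and in the fits to shoots alone (0.102) and to 4 arrays (0.0916). Neither of the 2 measured salicylate genes was called, beside 21.6% of all probe sets tested. GRX480 (AT1G28480), a glutaredoxin induced by salicylate, had 119.6 and 103 at 1 h against 108 and 58.3 at 0.5 h (adjusted p = 0.440).

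None of 16 measured xyloglucan endotransglucosylases and expansins, enzymes and proteins that loosen cell walls, was called with all arrays, beside 21.6% of all probe sets tested. Of the 16, 3 had an unadjusted limma p under 0.05, and the changes lay between -0.46 and 0.64. Without the first 1 h array XTH19 was called lower (-0.92, adjusted p = 0.0141), and without the second 0.5 h array EXPA4 was called higher (0.68, 0.0432). Of 4 measured nuclear photosynthesis genes 1 was called, where 21.6% of all probe sets tested were. It was PSAN (AT5G64040) of photosystem I, with 3667 and 4718 at 1 h against 3243 and 3392 at 0.5 h (0.33 ± 0.12, adjusted p = 0.0494). That call was lost under quantile normalization of all arrays (0.164) and under further settings, and the value was 0.14 without the second 1 h array and 0.51 without the first. RCA, LHCB4.1 (AT5G01530) and LHCB4.2 (AT3G08940), which encodes a light-harvesting protein like LHCB4.1, had log2 changes of 0.23, 0.19 and 0.09, with no call, and RCA was called at 0.49 without the first 1 h array (limma adjusted p = 0.0174). Under quantile normalization LHCB4.2 was at -0.05. Of 69 plastid-encoded probe sets 2 were lower and none higher, beside 11.5% and 10.1% of all probe sets tested. The 2 were ndhF and rps19, both named after their values were seen. NdhF and NdhS are subunits of the chloroplast NADH dehydrogenase-like complex, and ndhF had signals of 56.0 and 40.5 at 1 h against 141 and 96.2 at 0.5 h (-1.14 ± 0.35, adjusted p = 0.0261). The ndhF call was lost without the first 0.5 h array (0.204), the second 1 h array (0.178) or a pseudocount (0.115), and the rps19 call (-0.34) without any 1 of the 4 arrays (0.0626 to 0.202). The nuclear gene NdhS (AT4G23890), named after its values were seen, had 555 and 513 at 1 h against 999 and 1198 at 0.5 h and fell by 1.02 ± 0.17 (adjusted p = 1.69e-04). None of 5 reference genes was called, beside 21.6% of all probe sets tested, with changes from -0.15 to 0.29.

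Some annotated genes outside the lists also changed, and the ones given here were chosen after their values were seen. DLAH (AT1G30370), a lipase, had signals of 101 and 109 at 1 h against 36.6 and 23.7 at 0.5 h and rose by 1.54 ± 0.15 (limma adjusted p = 2.04e-07). RING1 (AT5G10380), a ubiquitin ligase linked to programmed cell death, had 606 and 664 at 1 h against 254 and 328 at 0.5 h and rose by 1.11 ± 0.22. SP1L4 (AT5G15600), of a family that organizes microtubules, had 159.9 and 228 at 1 h against 75.5 and 81.8 at 0.5 h and rose by 1.19 ± 0.15. The β-tubulin TUB7 (AT2G29550), another gene of microtubules, had 277 and 282 at 1 h against 131 and 188 at 0.5 h and rose by 0.80 ± 0.13. MSRB5 (AT4G04830), which repairs oxidized methionine, had 155 and 148 at 1 h against 391 and 315 at 0.5 h and fell by 1.17 ± 0.18. MSRB5 averaged 819 over the root arrays and changed by -1.01 without the first 0.5 h array (limma adjusted p = 0.00380). DPL1 (AT1G27980), a lyase of sphingolipid breakdown, had 43.1 and 54.1 at 1 h against 115 and 123 at 0.5 h and fell by 1.15 ± 0.15. Some large changes were of probe sets with no gene in the annotation, likewise chosen after their values were seen. Of those that fell, one had 15.8 and 15.4 at 1 h against 492 and 413 at 0.5 h, and another had 0.565 and 0.640 at 1 h against 156 and 161 at 0.5 h. Of those that rose, one had 273 and 333 at 1 h against 18.8 and 20.7 at 0.5 h, and another had 126 and 144 at 1 h against 16.0 and 16.7 at 0.5 h.

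The levels at the other times place this step within each gene's course. Differences from the other times were not tested. The 174 probe sets higher by 2-fold or more had median shoot signals of 59.9 at 0.25 h, 66.7 at 0.5 h, 193 at 1 h, 163 at 3 h, 101 at 6 h, 43.4 at 12 h and 50.0 at 24 h. Their choice fixed a 1 h level above that at 0.5 h. Their 3 h median was still above that at 0.25 h, and their 12 h median was below it. The 278 lower ones had medians of 102 at 0.25 h, 137 at 0.5 h, 44.4 at 1 h, 63.2 at 3 h, 93.8 at 6 h, 61.5 at 12 h and 93.4 at 24 h. Their median was lowest at 1 h, but their choice by a fall at 1 h favours a low level there. Single genes departed from these courses. GSTU28 had mean shoot signals of 16.0 at 0.25 h, 9.12 at 3 h and between 8.51 and 12.3 from 6 h on, which made 1 h a lone peak. WRKY6 was at 9.37 at 0.25 h and 187 at 3 h, so that its low level at 1 h lay between 2 higher ones. ATG8E was at 369.8 at 0.25 h, 271 at 3 h and 449.7 at 24 h and was lowest at 1 h. PDF1.4 was at 29.8 at 0.25 h and between 12.8 and 48.0 from 3 h on, so its 0.5 h level was the exception. PDF1.2b was at 1041 at 0.25 h, 41.0 at 3 h, 94.2 at 6 h, 1399 at 12 h and 954 at 24 h. AT4G22470 and AT2G17740, like PDF1.4, were high at 0.5 h alone among the shoot times, with means of 4.82 to 17.0 at the times other than 0.5 h and 1 h. Some genes that rose had been higher at 0.25 h than at 0.5 h. STZ had shoot means of 1568 at 0.25 h, 982 at 0.5 h and 1723 at 1 h. IAA29 was at 50.3, 11.9 and 30.9 at these times, and GH3.3 at 65.2, 19.7 and 54.5. CML38 went the other way, with 179.9 at 0.25 h and 246 at 0.5 h.

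**Figure D3:**
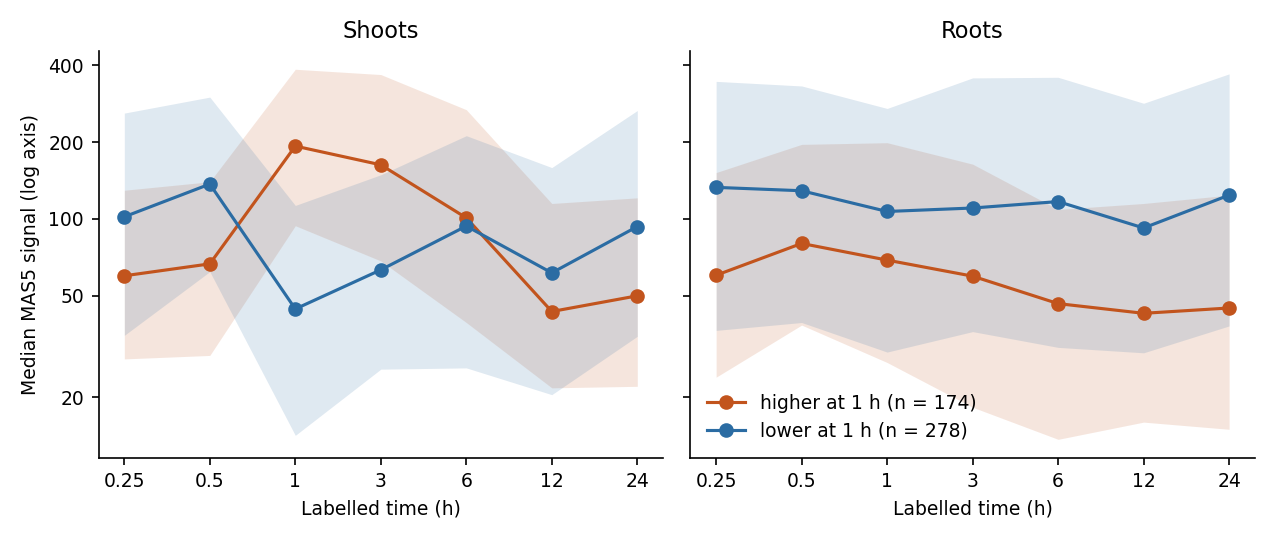
Median MAS5 signal (vertical log axis) over the 174 probe sets that were higher and the 278 that were lower by at least 2-fold in shoots at 1 h, at each labelled time (horizontal axis, evenly spaced), in shoots on the left and roots on the right. Shaded bands run between the quartiles over probe sets. The choice of probe sets fixes the gap between 0.5 h and 1 h in shoots, and in roots the medians of the higher set were 69.0 at 1 h and 80.2 at 0.5 h.

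The same step in roots was smaller in number of calls, with 472 probe sets (3.19%) higher and 616 (4.16%) lower, 7.35% of those tested. The difference between the tissues was tested directly, as the shoot change minus the root change, and was called for 1652 probe sets or 11.2%, 762 (5.15%) with the shoot change above and 890 (6.01%) with it below the root change. It was at least 2-fold in 272 (1.84%) and 300 (2.03%) of these. Of the 174 probe sets higher by 2-fold or more in shoots, 29 were called higher and 30 lower in roots, and for 135 the difference itself was called. Of the 278 lower ones, 11 were called higher and 41 lower in roots, and for 199 the difference was called. Both sets were chosen by their shoot change, which is part of the tested difference. That choice raises the share of called differences above the 11.2% over all probe sets. Among all probe sets called in both tissues, 309 moved in the same direction and 146 in opposite directions. All 146 had a called difference, which follows from calls of opposite sign in both tissues and is no further test. Shoot and root changes over 14806 probe sets correlated at Pearson's r = 0.135 and Spearman's rho = 0.128, where probe sets share the arrays and are not independent.

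Rapid stress genes that rose in shoots fell in roots. CML37 had signals of 15.2 and 10.5 at 1 h against 73.0 and 63.7 at 0.5 h in roots, a change of -1.80 (limma adjusted p = 1.27e-06), and the shoot change exceeded it by 3.46 ± 0.27 (adjusted p = 2.42e-08). AT4G27280 had 384 and 339 at 1 h against 858 and 1042 at 0.5 h in roots, and the tissues differed by 2.65 ± 0.24. STZ had 378 and 387 at 1 h against 935 and 687 at 0.5 h in roots, with a difference of 1.85 ± 0.19, and CML38 had 56.9 and 64.9 at 1 h against 124 and 95.5 at 0.5 h, with a difference of 1.43 ± 0.21. Of the 8 measured genes of that list 6 were lower in roots and none higher, where 4.16% of all probe sets tested were lower. The difference between tissues was called in 7, beside 11.2% of all probe sets tested. The CML38 call in roots was lost without the first 0.5 h root array (0.0676), while its difference between tissues was called without any 1 of the 8 arrays. DLAH, named after its values were seen, followed the same pattern, with 67.5 and 64.8 at 1 h against 175 and 197 at 0.5 h in roots and a difference of 2.91 ± 0.21. Among genes named by rule, the 3 largest differences in this direction were those of AT2G32140 (4.13 ± 0.26), AT3G48640 (3.79 ± 0.56) and AT4G37290 (3.72 ± 0.34).

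In the opposite direction the largest differences of genes named by rule were those of PDF1.4 (-3.33 ± 0.36), PDF1.2b (-3.16 ± 0.46) and AT2G43620 (-2.72 ± 0.24; limma adjusted p = 8.68e-08). PDF1.4 had root signals of 69.0 and 57.0 at 1 h against 21.4 and 28.2 at 0.5 h and rose there by 1.08 (adjusted p = 0.00833, and 0.110 and 0.101 without the first 0.5 h or the first 1 h root array). AT2G43620 had 19.5 and 12.3 at 1 h against 105 and 68.0 at 0.5 h in shoots and 78.5 and 68.6 at 1 h against 35.7 and 39.1 at 0.5 h in roots. AT4G27450, named after its values were seen, had 133 and 125 at 1 h against 392 and 347 at 0.5 h in shoots and 729.6 and 797 at 1 h against 360.0 and 370.1 at 0.5 h in roots. COR15A differed by 2.48 ± 0.39 with weak root signals of 3.78 to 8.12. ATG8E (-2.32 ± 0.26) and WRKY6 (-1.90 ± 0.20) differed too: ATG8E had 291 and 316 at 1 h against 310.4 and 243 at 0.5 h in roots, and WRKY6 had 203 and 202 at 1 h against 218 and 211 at 0.5 h, without a call in either.

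Both UGT84A1 and UGT78D2 rose in the 2 tissues alike in direction. UGT84A1 had root signals of 424 and 451 at 1 h against 34.3 and 48.5 at 0.5 h and rose by 3.15 (limma adjusted p = 6.39e-06), 0.19 ± 0.49 more than in shoots, with no call of the difference (adjusted p = 0.855). UGT78D2 had 898 and 915 at 1 h against 405 and 400.3 at 0.5 h in roots, and the tissues differed by less than 0.01 ± 0.17 in its log2 change. Among the flavonoid genes 4 of 5 were higher in roots and 2 of 5 in shoots, beside 3.19% and 10.1% of all probe sets tested. UGT78D1 was the one gene of that list whose change differed by the direct test (-1.08 ± 0.30, limma adjusted p = 0.0222). That call was lost in 5 of the 8 omissions of an array (up to 0.101) and with no pseudocount (0.0912). HYH had root signals of 247 and 251 at 1 h against 141 and 121 at 0.5 h, and its shoot change was smaller by 0.70 ± 0.19 (limma adjusted p = 0.0169), a call lost in 3 of the 8 omissions (0.0605 to 0.0963). GI rose in roots as well, by 1.09, with 367 and 357 at 1 h against 169.5 and 162 at 0.5 h.

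**Figure D4:**
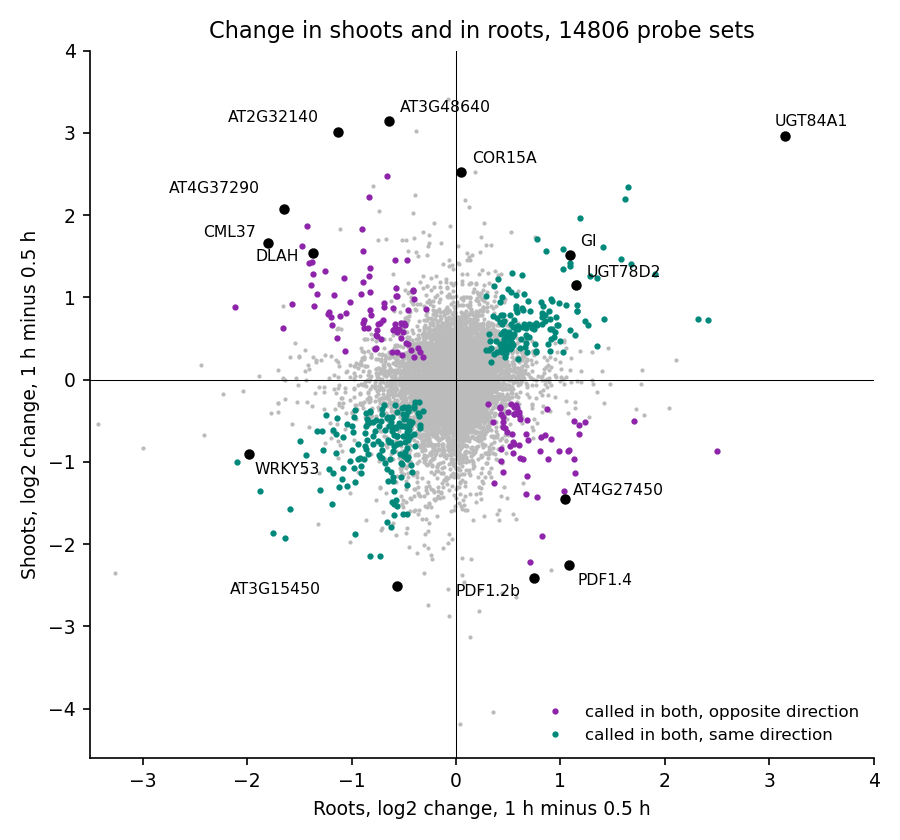
Log2 change from 0.5 h to 1 h in shoots (vertical axis) against that in roots (horizontal axis) for 14806 probe sets, each a point. Coloured points were called in both tissues, 146 in opposite directions and 309 in the same direction, and labelled black points are genes described in the text.

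**Figure D5:**
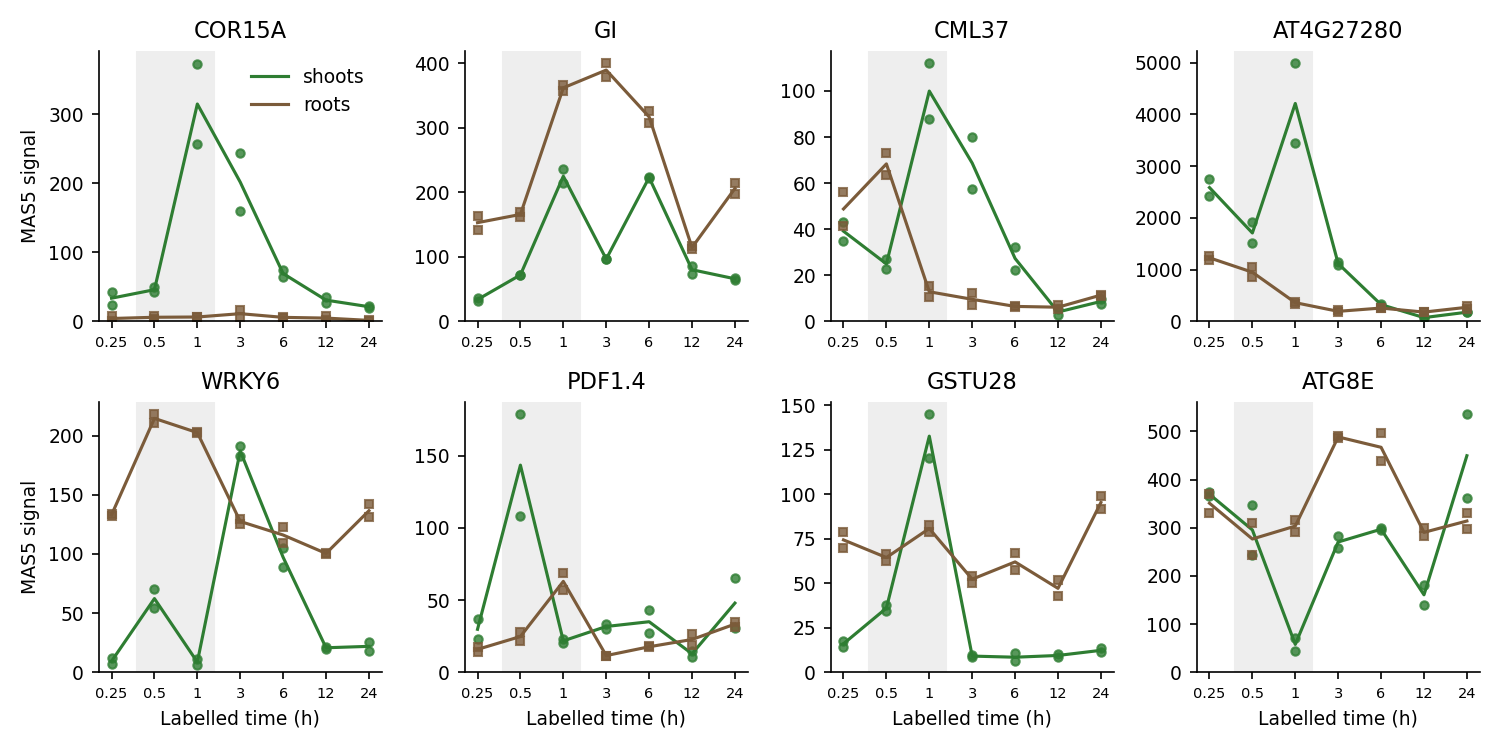
MAS5 signal (vertical axes, linear and different for each gene) of 8 genes at each labelled time (horizontal axes, evenly spaced) in shoots (circles) and roots (squares), with points for single arrays, lines through the means of 2 arrays, and a grey band over 0.5 h and 1 h. CML37 and AT4G27280 are higher at 1 h than at 0.5 h in shoots and lower in roots, and WRKY6 and ATG8E are low in shoots at 1 h alone of the times from 0.5 h to 6 h.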

How the data were processed

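Deposited values were intensities, the linear MAS5 signals that the authors computed for each probe set, per the submitters' processing notes; settings and detection calls are not given in the sources used here. Each array had a trimmed mean near 99.96, as scaling to a common target before deposit gives. From there, 64 control probe sets were left out and log2(signal + 9.58) was used, 9.58 being the 25th percentile of all signals. Of 22746 probe sets, 14806 exceeded the array's median signal on 2 or more arrays and were kept. All 28 arrays entered 1 limma model (3.58.1, under R 4.3.3) with 14 group means, with trend and robust moderation (14 residual and 7.24 prior degrees of freedom). P-values were 2-sided and Benjamini-Hochberg adjusted, with calls under 0.05. The number of arrays limits precision. Of the kept probe sets, 7914 match 1 gene, 320 several and 6572 none in the tables used (gene names from the TAIR10.1 assembly's RefSeq annotation), and only the first kind is named. Members, gene lists and tests were chosen with earlier results of these data known. Named genes are the 12 largest rises and falls called with both arrays beyond both others, up to 4 members per list and up to 3 called per family by moderated t, and the 3 largest differences between tissues each way; genes named otherwise are marked as named after their values were seen. Replicate numbers did not pair the arrays (correlation of same-numbered deviations 0.009 in shoots and -0.115 in roots), so no block was used. Alternatives were other pseudocounts, quantile normalization, centring, other filters, fits to fewer arrays, no trend and robust options, a replicate block, omission of single arrays and a minimum change of 2-fold. The models were tested on simulated data.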

Additional observations from a re-analysis of the deposited data

Results flagged for a closer look

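Results that stood out here are changes that differed between shoots and roots by the direct test of that difference (limma, 1652 probe sets called). All values are the shoot log2 change minus the root log2 change, 1 h minus 0.5 h in each. Many of the named genes were chosen by their shoot change, which is part of this difference. Of 50 named genes with a called difference, 33 kept it without any 1 of the 8 arrays and 31 under every setting run for it.

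Among the largest rises in shoots, the shoot change was above the root change by 4.13 for AT2G32140, 3.79 for AT3G48640, 3.72 for AT4G37290, 3.40 for AT2G20142, 3.15 for AT5G22530, 3.04 for AT1G24140, 2.34 for AT3G60420 and 2.12 for AT4G32800. The cold-regulated genes COR15A (2.48) and COR15B (1.92) belonged with them. Rapid stress genes were CML37 (3.46), AT4G27280 (2.65), STZ (1.85) and CML38 (1.43), beside WRKY53 (1.08), which fell in both tissues, and the glutaredoxin GRX480 (1.98). Smaller positive differences were those of GSTU28 (1.35), GSTU18 (0.68), IAA29 (0.97), AT2G04070 (0.95), LHCB4.2 (0.92), PSAN (0.89), AT3G17800 (0.75), UGT84A3 (0.70), OPCL1 (0.62) and GI (0.44). 

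Below the root change lay the defensins PDF1.4 (-3.33) and PDF1.2b (-3.16), AT2G43620 (-2.72), OSM34 (-2.47), ATG8E (-2.32), AT1G49500 (-2.23), AT3G15450 (-1.95), AT4G22470 (-1.92), SIS (-1.89), AT2G17740 (-1.74) and AT5G19120 (-1.33). Transcription factors here were WRKY6 (-1.90), WRKY47 (-1.68), HYH (-0.70), MYC4 (-0.69) and HAT2 (-0.64). Enzymes and others were UGT72E1 (-1.52), CYP71B36 (-1.21), UGT78D1 (-1.08), AT5G48570 (-1.01), CML41 (-0.94), PUB23 (-0.89), PUB22 (-0.82) and GSTU27 (-0.57).

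Some of these calls rested on single arrays. The call was lost in 7 of the 8 omissions of an array for GI, AT2G04070 and PUB23, in 6 for GRX480 and MYC4, in 5 for AT3G60420, UGT78D1, LHCB4.2 and GSTU27, in 4 for UGT84A3 and CYP71B36, in 3 for HYH, WRKY53 and CML41, in 2 for HAT2 and in 1 for OPCL1 and AT5G48570. AT2G04070 was also not called with no filter (limma adjusted p = 0.0601) or with no pseudocount (0.0680).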

How the results depend on the processing

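The number of calls in shoots, 3203 with all arrays, lay between 1905 and 3075 when 1 of the 4 arrays was left out, fell to 1473 in a fit to those arrays alone and to 452 with a 2-fold minimum, where fewer probe sets can pass. It was 2194 with shoots fitted alone and 2291 after quantile normalization of the shoot arrays. With a replicate block it was 3149, and 3163 with the root-abundant probe sets left out, an alternative chosen after seeing the data. In roots, 1088 calls became 546 to 705 without 1 array, 202 at 2-fold, 1060 with a replicate block and 1069 with its numbers crossed, also chosen after seeing the data. The difference between tissues had 1652 calls, 987 to 1930 without 1 of the 8 arrays, 572 at 2-fold and 1596 with a replicate block. Over 1306 pairs of a named gene and an alternative in shoots, 1195 kept direction and side of the threshold, 76 lost a call, 20 gained one and 15 turned direction. The turned values were of genes that had not been called with all arrays. Without 1 array, UGT78D1 ranged from -0.27 to 0.16, LTI30 from -0.35 to 0.52, SAG101 from -0.31 to 0.30, RCA from -0.04 to 0.49, LHCB4.1 from -0.03 to 0.41, LHCB4.2 from -0.06 to 0.24 and XTH19 from -0.92 to 0.17. Further turned values were LTI30 at -0.00 under quantile normalization of shoots, SAG101 at 0.00 with no pseudocount and 0.01 after centring, and LHCB4.2 at -0.05 under both quantile normalizations. Centring gave 1657 higher and 1614 lower calls in shoots. Of 65 called genes, 44 stayed called under every alternative and 48 without any 1 array, and 21 moved by over 1.5 times with another pseudocount. The cause of the other shifts was not tested. Signals near the pseudocount of 9.58 limit what can be seen of weak transcripts.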
